A study of Mus musculus with 5 samples.

Results

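Genes used as surface or enzyme markers of mammary progenitor and stem cells were followed in single cells of mouse mammary tumours. The 9 genes, Aldh1a3, Kit, Prom1, Cd14, Cd24a, Cd44, Itga6, Itgb3 and Procr, were listed by name, with no threshold on their values, out of 41028 gene names. They were described in epithelial cells and in the cells outside the epithelium. An epithelial cell was defined as a cell with at least 15 unique molecular identifiers (UMIs, each a count of 1 captured transcript molecule) of Krt8, Krt18 and Epcam together per 10000 UMIs, and 10959 of 15958 cells met that gate. The study compared single-cell RNA sequencing platforms on tumours of PyMT mice, in which the polyoma virus middle T antigen is expressed in the mammary epithelium. Tumours were digested, and cells enriched for viability were loaded on 10x Genomics Chromium (3' v2 chemistry, droplets) or on BD Rhapsody (whole transcriptome assay, microwells). There were 5 libraries: 2 from fresh cells on 10x (fresh 10x 1 and fresh 10x 2), 1 on 10x from a digest kept overnight at 4 °C, titled 24 h, with viability lower by at least 20% (stored 10x), 1 fresh library on BD Rhapsody (fresh BD), and a further BD Rhapsody library (BD 2). The title of BD 2 says fresh and its deposited matrix is named for 24 h, so no storage state was assumed for it. Mouse strain, age and the number of tumours or animals behind each library are not stated in the labels, so p-values here measure the spread between these libraries, which may be technical.

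In the mammary gland, luminal progenitors are the hormone receptor negative luminal cells that can form colonies and give rise to milk-producing alveolar cells, and they are commonly sorted by the receptor Kit, the integrin β3 chain (Itgb3, CD61), the lipopolysaccharide co-receptor Cd14 and aldehyde dehydrogenase activity, to which the retinal-oxidising enzyme Aldh1a3 contributes. Prom1 (CD133) marks hormone-sensing luminal cells in the mouse gland. Cd24a, a lipid-anchored sialoglycoprotein, together with the laminin-binding integrin α6 chain (Itga6, CD49f) and the hyaluronan receptor Cd44, separates basal from luminal cells by flow cytometry, and Procr, the endothelial protein C receptor, has been used to mark a basal stem cell population and is a known endothelial protein.

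All 9 members are protein-coding genes in GENCODE M21 (build GRCm38): Aldh1a3 at chr7:66390890-66427517 (minus strand), Kit at chr5:75574916-75656722 (plus), Prom1 at chr5:43993620-44102032 (minus) and Cd24a at chr10:43578284-43584265 (plus). Cd44 lies at chr2:102811141-102901665 (minus), Itga6 at chr2:71745616-71858416 (plus), Itgb3 at chr11:104608000-104670476 (plus) and Procr at chr2:155751117-155755471 (plus). The position of Cd14 is given with its values. Upstream sequences were matched by symbol in RefSeq (GRCm38.p6) for 4 of the 9 members. The stretch from 250 to 101 bases before the most upstream RefSeq start is shown for 3 of them. These are a member found mostly in the epithelium (Kit), a member found on both sides of the gate (Cd44) and a member found almost wholly outside it (Procr). Windows that touch an annotated exon were left out by rule, and that of Prom1, the other matched member, does and is not shown. The windows are chr5:75574737-75574886 (plus) for Kit, chr2:102901766-102901915 (minus) for Cd44 and chr2:155750967-155751116 (plus) for Procr, and 0 of their bases lie in a GENCODE exon. Each is printed 5′ to 3′ on the strand of its gene, with matches to any of 5 motifs in capitals.
Kit: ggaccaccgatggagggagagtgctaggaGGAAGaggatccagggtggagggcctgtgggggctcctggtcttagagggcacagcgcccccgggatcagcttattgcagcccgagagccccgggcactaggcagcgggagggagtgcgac
Cd44: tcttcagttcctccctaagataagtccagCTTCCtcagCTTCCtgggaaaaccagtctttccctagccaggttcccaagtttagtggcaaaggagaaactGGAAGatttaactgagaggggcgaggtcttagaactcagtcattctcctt
Procr: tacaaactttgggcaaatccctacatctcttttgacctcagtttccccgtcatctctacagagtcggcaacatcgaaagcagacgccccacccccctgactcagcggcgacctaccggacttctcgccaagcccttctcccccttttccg
The motifs, searched on both strands, were TATAAA (present in 7.29% of the same window over 32851 RefSeq entries), CCAAT (20.0%), GGGCGG (16.7%), CACCTG (10.9%) and GGAAG, the core of ETS family sites (44.4%). No matches overlapped. GGAAG matched 1 time in the Kit window and 3 times in the Cd44 window, and none of the 5 motifs matched in the Procr window. GC content was 67.3% for Kit, 47.3% for Cd44 and 56.0% for Procr, against a median of 50.7% over all entries, and the windows held 7, 1 and 9 CG dinucleotides against a median of 3. These matches describe letters in a window and say nothing of binding.

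The libraries held 29166129, 30027178, 53381382, 59957945 and 49966022 UMIs in the order fresh 10x 1, fresh 10x 2, stored 10x, fresh BD and BD 2, and values for single libraries follow this order throughout. Epithelial cells numbered 1396, 1430, 2971, 2528 and 2634, with median depths of 10870.5 to 13673 UMIs. The median share of mitochondrial UMIs in them was 6.66% to 7.41% on 10x and 15.6% and 19.3% on BD Rhapsody. Summed over 6 epithelial genes the gate did not use (Krt19, Cldn4, Cldn7, Cdh1, Krt7, Ehf), the level was 12.0 to 15.1 UMIs per 10000 in cells at or above the gate and 0.508 to 4.05 in cells below it. Cells below the gate that passed no other class gate numbered 76, 83, 362, 552 and 968 and had 4.47 to 6.60 of the same sum. In each library, therefore, part of the cells counted as outside the epithelium carried epithelial transcripts, and such cells were most numerous on BD Rhapsody. Few cell barcodes were shared between libraries: 1 by fresh 10x 1 and fresh 10x 2, 1 by fresh 10x 1 and stored 10x, 5 by fresh 10x 2 and stored 10x, and 24 by the BD Rhapsody pair.

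Kit, Prom1, Cd14, Cd24a, Itga6 and Itgb3 were higher in epithelial cells than in the other cells of the same library, Cd44 and Procr were lower, and Aldh1a3 showed no difference past the threshold. The question was whether each marker separates tumour epithelium from the rest of the tumour. UMIs were summed per library and compartment and tested over 15754 genes by edgeR's quasi-likelihood test with Benjamini-Hochberg adjustment and the library as a block. Of all genes tested, 34.6% were higher and 31.9% lower in epithelial cells, so a call alone does not set a member apart. In such sums, fewer cells carrying a transcript and less of it per cell cannot be told apart.

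Among the luminal progenitor markers, Kit, the receptor tyrosine kinase for stem cell factor, had 0.662, 0.781, 0.817, 0.938 and 0.868 UMIs per 10000 in epithelial cells and 0.151, 0.212, 0.189, 0.180 and 0.264 in the other cells. The compartments did not overlap, and the log2 fold change was 2.14 ± 0.12 (SE, n = 5 libraries; edgeR adjusted p = 8.24e-06). Epithelial cells held 89.5% to 96.8% of all Kit UMIs of a library. A Kit UMI was seen in 46.1% to 56.1% of epithelial cells (median depths above) and in 0.943% to 3.70% of cells gated as fibroblasts by collagen transcripts, whose median depths were 11263 to 18670 UMIs. Cd14 (chr18:36725067-36726798, minus strand) presents bacterial lipopolysaccharide to Toll-like receptor 4. It had 3.69, 2.02, 3.41, 4.33 and 3.75 UMIs per 10000 in epithelial cells and 1.18, 1.06, 2.22, 3.46 and 3.16 outside them. Every library had more in its epithelial cells, but the 2 sets overlapped across libraries, and the log2 fold change was 0.84 ± 0.21 (adjusted p = 0.0110). That call was lost without stored 10x (0.93, adjusted p = 0.0560) and when the outside cells were limited to those that passed exactly 1 class gate (0.83, adjusted p = 0.0625).

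Itgb3, which pairs with the αv chain to bind vitronectin and osteopontin, had 0.181, 0.145, 0.259, 0.439 and 0.443 UMIs per 10000 in epithelial cells against 0.155, 0.148, 0.232, 0.352 and 0.259 in the others. Fresh 10x 2 showed no excess, and the log2 fold change of 0.40 ± 0.12 (adjusted p = 0.0180) was not called without fresh BD (0.38, adjusted p = 0.0616). Aldh1a3 had 0.125, 0.229, 0.245, 0.299 and 0.212 UMIs per 10000 in epithelial cells and 0.127, 0.205, 0.478, 0.762 and 0.280 outside them. Its log2 fold change of -0.46 ± 0.23 did not pass (adjusted p = 0.112). The direction of the Aldh1a3 value depended on the cells on each side: it was 0.87 (adjusted p = 0.00305) with the epithelial gate at 30 UMIs per 10000, -0.85 (adjusted p = 0.0467) against outside cells that passed exactly 1 class gate, and -0.64 (adjusted p = 0.0471) without fresh 10x 2.

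Cd24a and Prom1 were held to the epithelium. Cd24a had 2.90, 2.93, 4.02, 7.87 and 7.45 UMIs per 10000 in epithelial cells and 0.159, 0.308, 0.829, 1.75 and 2.48 in the others (log2 fold change 2.73 ± 0.38, adjusted p = 0.000713). The order of the outside values followed the epithelial marker sum of the same cells, which was 0.508, 0.701, 1.91, 2.59 and 4.05 UMIs per 10000, and its part in the Cd24a values was not tested. Prom1, a pentaspan protein of membrane protrusions, had 0.156, 0.112, 0.186, 0.256 and 0.293 inside the gate and 0.0189, 0.0306, 0.0446, 0.0980 and 0.146 outside it (1.79 ± 0.27, adjusted p = 0.000889). With the gate at 30 the Prom1 value was 0.45 and was not called (adjusted p = 0.0977).

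Itga6 and Cd44, the adhesion receptors, lay on both sides of the gate. Itga6 had 1.32, 1.41, 1.26, 1.84 and 1.73 UMIs per 10000 in epithelial cells and 1.19, 0.981, 0.854, 0.802 and 0.951 outside them (log2 fold change 0.76 ± 0.14, adjusted p = 0.00269). The outside values include cells that passed no class gate, whose Itga6 is given under other observations. Cd44 had 0.390, 0.402, 0.463, 0.824 and 0.789 against 0.501, 0.574, 0.958, 1.55 and 1.13, lower in the epithelium in 5 of 5 libraries (-0.58 ± 0.12, adjusted p = 0.00413). The Cd44 difference was 0.15 (adjusted p = 0.127) with the gate at 30 and -0.44 (adjusted p = 0.0750) without stored 10x. Procr was nearly absent from epithelial cells, at 0.00419, 0.00388, 0.00600, 0.00249 and 0.00111 UMIs per 10000, which came from 10, 10, 28, 11 and 4 UMIs. Outside the epithelium it had 0.331, 0.339, 0.349, 0.357 and 0.186 (-6.40 ± 0.23, adjusted p = 1.28e-06). A Procr UMI was seen in 0.114% to 0.774% of epithelial cells, against 0 of 378 T cells, a class at far lower median depth (2391 to 5150.5 UMIs).

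**Figure D1:**
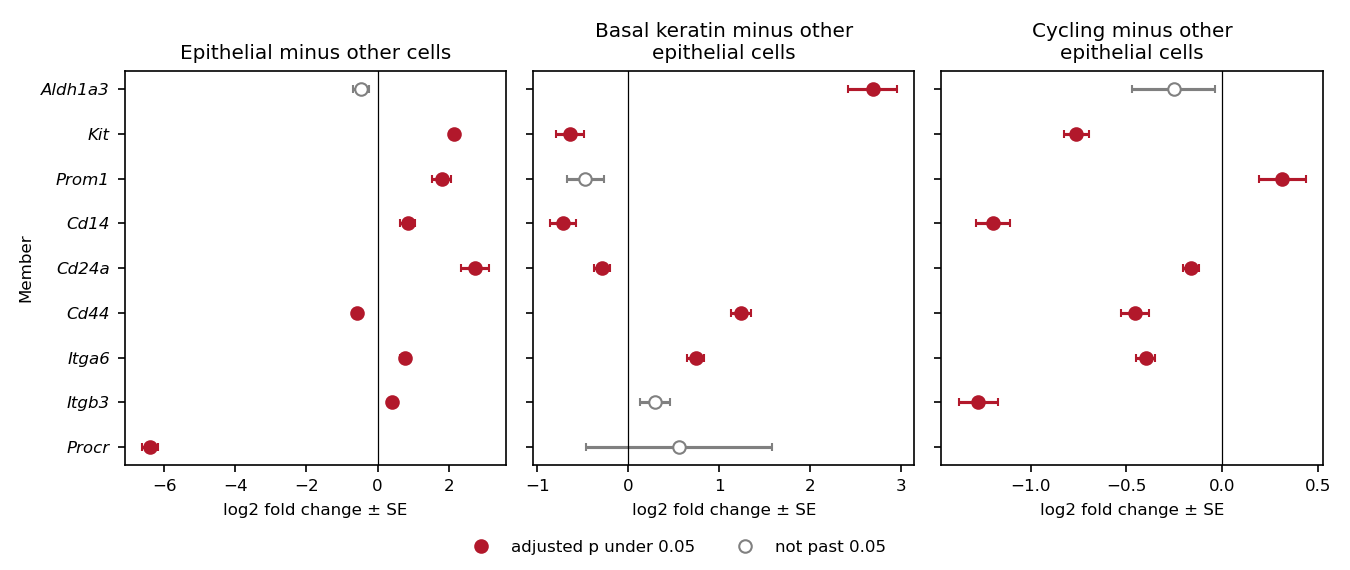
Log2 fold change of each member (points) with its SE (bars) from edgeR for epithelial minus other cells, basal keratin minus other epithelial cells, and cycling minus other epithelial cells; filled points passed an adjusted p of 0.05. Procr stands at -6.40 in the first panel, Aldh1a3 at 2.69 in the middle one, and Itgb3 and Cd14 lie lowest in the last.

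Outside the epithelium the members fell to different cell classes, which were gated on textbook transcripts: C1qa, C1qb and C1qc for macrophages, Cd3d, Cd3e and Cd3g for T cells, Pecam1, Cdh5 and Egfl7 for endothelial cells, Rgs5, Higd1b and Cspg4 for mural cells of vessels, and Col1a1, Col1a2 and Col3a1 for fibroblasts. Class sums with at least 20 cells in a library entered a single fit with the epithelial sums, with the library as a block. Each class was set against the epithelial sums over 10893 genes by edgeR's quasi-likelihood test with Benjamini-Hochberg adjustment. The spread behind each p-value is therefore shared over the classes. Genes called higher and lower made up 26.7% and 37.2% for macrophages, 21.9% and 35.8% for T cells, 27.5% and 29.7% for endothelial cells, 36.9% and 33.5% for fibroblasts, and 19.4% and 21.2% for mural cells.

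Procr was found in endothelial cells, mural cells, fibroblasts and macrophages. It had 0.813, 1.06, 1.16, 1.52 and 1.24 UMIs per 10000 in endothelial cells, 0.118, 0.177, 0.414, 0.606 and 0.515 in fibroblasts, and 0.437, 0.531 and 0.865 in the mural cells of the 10x libraries. Against epithelial cells the log2 fold change was 8.36 ± 0.37 for endothelial cells (adjusted p = 9.87e-16), 7.59 ± 0.72 for mural cells, 6.78 ± 0.34 for fibroblasts and 6.09 ± 0.44 for macrophages. Because the epithelial level rests on few UMIs, these folds are large with little behind their lower end. Endothelial levels exceeded fibroblast levels in every library, while macrophage levels of 0.0244 to 0.408 overlapped those of fibroblasts. The class that held most of a library's Procr UMIs changed with its cell make-up: endothelial cells held 59.5% and 49.4% in the fresh 10x libraries, 21.7% in stored 10x, 10.5% in fresh BD and 2.67% in BD 2, and fibroblasts held 16.2%, 22.1%, 54.0%, 69.9% and 70.6%. Macrophages held 4.86%, 0.649%, 4.18%, 12.9% and 19.8%. Endothelial cells numbered 177, 83, 76, 38 and 10.

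Aldh1a3 outside the epithelium was a fibroblast transcript. Fibroblasts had 0.260, 0.448, 0.901, 1.77 and 0.908 UMIs per 10000, above the epithelial level of the same library in 5 of 5 (log2 fold change 1.92 ± 0.17, adjusted p = 7.20e-11). A UMI of it was seen in 12.3%, 23.7%, 29.4%, 44.4% and 35.6% of fibroblasts and in at most 1.59% of macrophages, whose median depths were 5075 to 12101 UMIs. It was scarce in the other classes, with 2 UMIs in 378 T cells (0.0489 times the epithelial level, 95% counting interval 0.00592 to 0.177), 1 UMI in 374 endothelial cells (0.0142 times, 0.000359 to 0.0790) and 0 UMIs in 160 mural cells, at least 5.66-fold lower than in epithelial cells on a floor of 3 counts over the group. Such intervals cover counting error only. Of the 7 aldehyde dehydrogenases tested, Aldh1a3 included, 5 were higher and 2 lower in fibroblasts than in epithelial cells. The largest differences were in the retinal-oxidising enzymes Aldh1a2 (8.09) and Aldh1a1 (7.53).

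Cd44 was higher in 4 of the 5 classes than in epithelial cells. Its log2 fold change was 1.33 ± 0.17 in T cells (1.17, 0.879, 1.33, 3.36 and 2.01 UMIs per 10000), 1.08 ± 0.14 in fibroblasts (0.633, 0.818, 0.988, 1.66 and 1.51), 1.04 ± 0.16 in macrophages and 0.94 ± 0.25 in mural cells (adjusted p = 0.00302). The mural call was lost without either fresh 10x library (0.73, adjusted p = 0.108, and 0.80, adjusted p = 0.0547). Endothelial cells were the exception, with 0.0140 to 0.122 UMIs per 10000 in the 4 libraries fitted and a log2 fold change of -3.39 ± 0.31 (adjusted p = 2.39e-10).

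Among the 5 classes Itga6 was highest in endothelial cells, at 3.31, 3.11, 2.97, 3.48 and 4.25 UMIs per 10000 (1.08 ± 0.15 against epithelial cells, adjusted p = 3.61e-07), and near absent from fibroblasts, at 0.0261 to 0.102 (-4.32 ± 0.18). Endothelial and epithelial values did not overlap. Macrophages, at 0.712 to 1.56, were close to the epithelium: the value of -0.38 ± 0.15 (adjusted p = 0.0301) was lost with DESeq2 (-0.28, adjusted p = 0.172) and in 6 other alternatives. Among the same 5 classes, which leave out the few neutrophil-gated cells, Cd14 was highest in macrophages, at 12.7, 5.49, 14.2, 15.2 and 17.3 UMIs per 10000 (1.97 ± 0.28, adjusted p = 5.68e-07), and the lowest value, in fresh 10x 2, went with the lowest epithelial Cd14. Fibroblasts had 0.0984 to 0.248 (-4.30 ± 0.33).

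Endothelial cells held 3.67% of all Kit UMIs in fresh 10x 1 and 2.57% in fresh 10x 2, more than any other cells outside the epithelium there. In stored 10x, fresh BD and BD 2 they held 0.762%, 0.564% and 0.229%, below the 1.73%, 3.97% and 8.18% in cells that passed no class gate. The Kit level of endothelial cells was 0.451, 0.754, 0.610, 0.635 and 1.42 UMIs per 10000, the last from 10 cells that were not tested. The difference from epithelial cells was small (-0.50 ± 0.19, adjusted p = 0.0260) and was lost with DESeq2 (-0.44, adjusted p = 0.229) and without stored 10x (-0.58, adjusted p = 0.0505). Kit in fibroblasts was at 0.00787 to 0.0321 UMIs per 10000 (-5.00 ± 0.22, adjusted p = 6.86e-18). Itgb3 in fibroblasts, at 0.173, 0.167, 0.321, 0.538 and 0.482, showed no difference from epithelial cells past the threshold (0.33 ± 0.15, adjusted p = 0.0606). The same held in T cells (-0.25 ± 0.26, adjusted p = 0.424) and endothelial cells (-0.40 ± 0.26, adjusted p = 0.199). Itgb3 was called higher in fibroblasts with the filter on cells (0.38, adjusted p = 0.0262). It was called lower in endothelial cells with the epithelial gate at 30 (-0.69, adjusted p = 0.0260). Macrophages had 0 to 0.0593 UMIs of Itgb3 per 10000 (-3.80 ± 0.35, adjusted p = 2.04e-10). Cd24a and Prom1 were lower than in the epithelium in each of the 5 classes, though Prom1 in mural cells was not called without fresh 10x 1 (adjusted p = 0.0808). The median Cd24a level was 0.347 in macrophages and 0.212 in fibroblasts, and Prom1 had 0 UMIs in 160 mural cells, at least 4.26-fold lower than in epithelial cells.

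**Figure D2:**
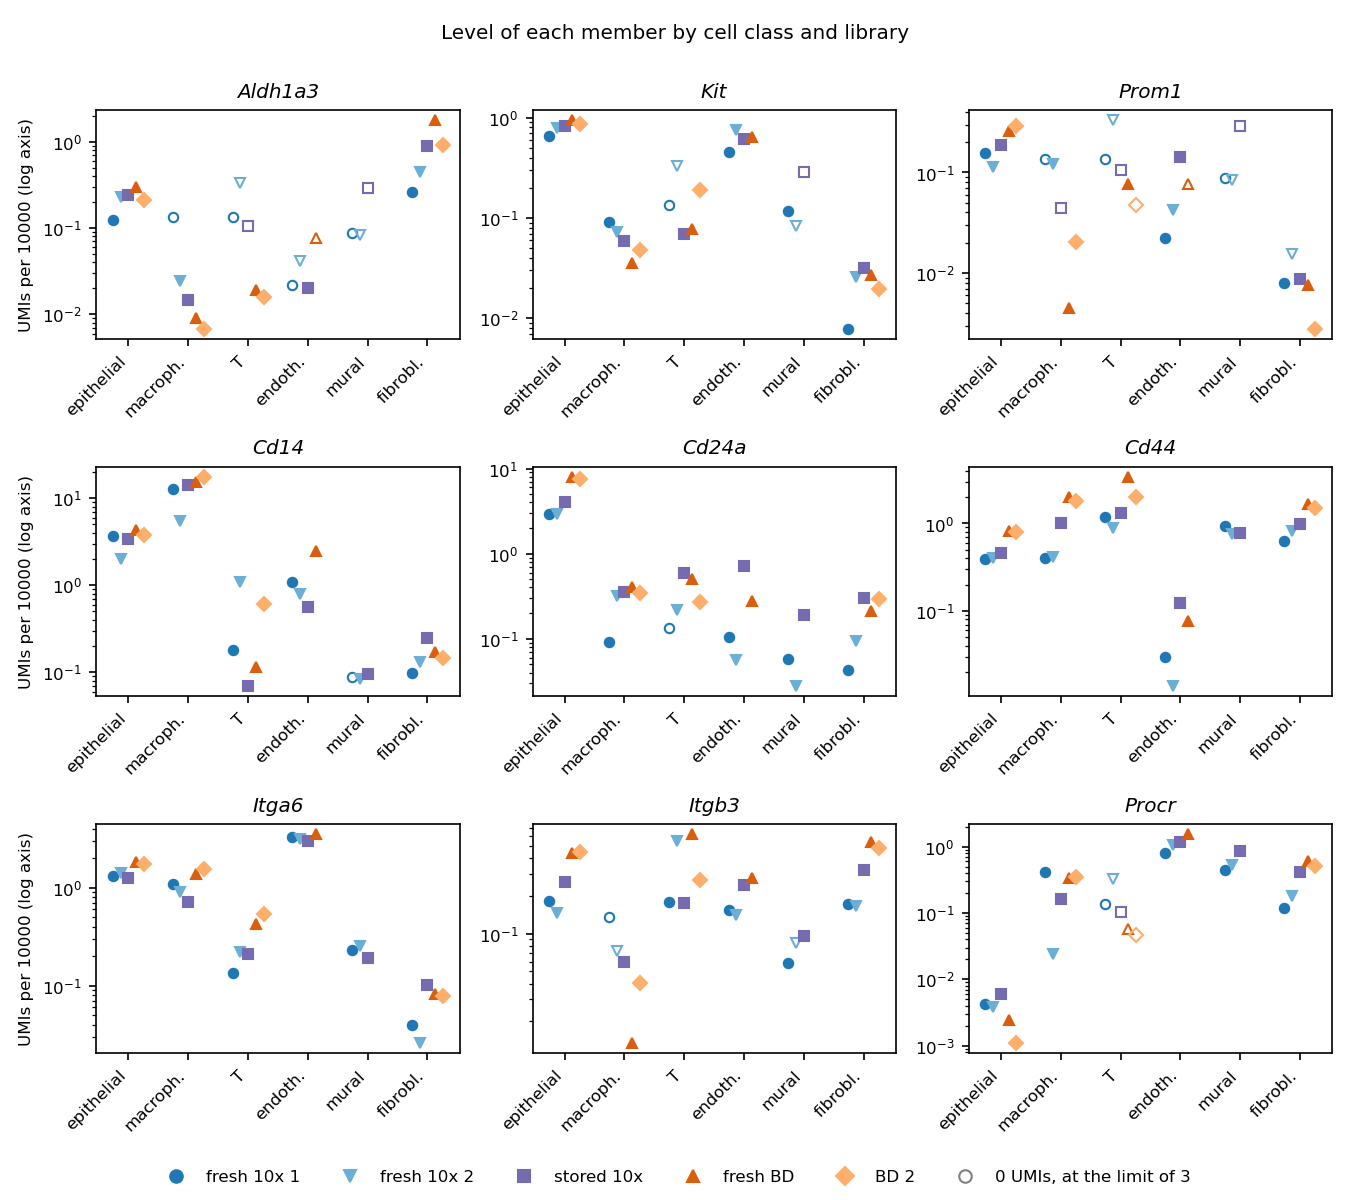
Summed level of each member in UMIs per 10000 (log axis) in epithelial cells and 5 gated classes, 1 point per library, for classes with at least 20 cells; open symbols have 0 UMIs and are drawn at the limit of 3 counts. Procr is lowest in epithelial cells (0.00111 to 0.00600), among the classes drawn Cd14 is highest in macrophages (5.49 to 17.3), Itga6 highest in endothelial cells (2.97 to 3.48 among those drawn) and Aldh1a3 highest in fibroblasts (0.260 to 1.77).

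Within the epithelium, cells with basal keratins had more Aldh1a3, Cd44 and Itga6 and less Kit, Cd14 and Cd24a than the other epithelial cells. The question was which members follow the basal and which the luminal arm. Basal keratin cells, with Krt5 and Krt14 at 5 or more UMIs per 10000 together, numbered 76, 58, 122, 46 and 37. They also had to pass the gate on Krt8, Krt18 and Epcam, so any basal cells low in these genes were counted as outside. Cells on 10x below that gate and without a class gate also carried basal transcripts (values under other observations). The results here hold only for basal keratin cells at or above the epithelial gate. The 4 basal genes that the gate did not use (Trp63, Krt17, Acta2, Oxtr) summed to 4.999 to 8.31 UMIs per 10000 in them and to 0.197 to 0.525 over all epithelial cells. Of 13896 genes tested with edgeR, 9.59% were higher and 14.1% lower in basal keratin cells, and of the 9 members 3 were higher and 3 lower.

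Itga6 had 2.27, 2.35, 1.98, 3.37 and 3.76 UMIs per 10000 in basal keratin cells and 1.28, 1.38, 1.23, 1.81 and 1.71 in the other epithelial cells. The groups did not overlap, and the log2 fold change was 0.74 ± 0.09 (edgeR adjusted p = 6.67e-07). Cd44 had 0.841, 0.824, 1.05, 2.62 and 2.13 against 0.370, 0.387, 0.441, 0.799 and 0.776, again without overlap (1.24 ± 0.11, adjusted p = 1.28e-09). Without the cell that held most Cd44 in each group, the level was 0.747, 0.591, 0.915, 2.12 and 1.40 against 0.364, 0.381, 0.437, 0.796 and 0.763. It was then still higher in 5 of 5 libraries, but the groups overlapped across libraries. Aldh1a3 had 0.257, 1.56, 0.843, 5.17 and 1.10 against 0.119, 0.181, 0.222, 0.231 and 0.203, higher in 5 of 5 libraries (2.69 ± 0.27, adjusted p = 7.08e-09).

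The Aldh1a3 levels of basal keratin cells rested on few cells. A single cell held 122 of 140 UMIs in fresh 10x 2 and 241 of 316 in fresh BD, and the cells with any UMI numbered 7, 10, 24, 7 and 11. Without the cell that held most, the level was 0.179, 0.217, 0.679, 1.35 and 0.883 UMIs per 10000 in basal keratin cells and 0.104, 0.167, 0.202, 0.222 and 0.187 in the others. The share of cells with an Aldh1a3 UMI was 9.21%, 17.2%, 19.7%, 15.2% and 29.7% against 5.76%, 8.31%, 9.34%, 9.91% and 7.55%, and it was also higher in 5 of 5 libraries after thinning each cell to 2000 UMIs (2.36% to 19.1% against 1.62% to 3.11%), which leaves 37 to 96 basal keratin cells a library. Marker genes of fibroblasts (Dcn, Lum, Pdgfra, Dpt), where Aldh1a3 was also found, summed to 0.180 to 0.801 UMIs per 10000 in basal keratin cells, 0.113 to 0.889 in all epithelial cells and 72.1 to 124 in fibroblasts.

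Kit was lower in basal keratin cells (-0.64 ± 0.15, adjusted p = 0.00221), at 0.524, 0.623, 0.730, 0.245 and 0.646 UMIs per 10000 against 0.668, 0.787, 0.820, 0.948 and 0.870. Cd14 was lower too (-0.71 ± 0.14, adjusted p = 0.000358), in 4 of 5 libraries, with 3.76 against 3.75 in BD 2. Cd24a was lower by a small step (-0.29 ± 0.09, adjusted p = 0.0164). These 3 calls were lost with the epithelial gate at 30, at -0.17 (adjusted p = 0.491) for Kit, -0.34 (adjusted p = 0.0874) for Cd14 and -0.03 (adjusted p = 0.904) for Cd24a, and Cd24a was also lost without either BD Rhapsody library and with DESeq2 (-0.21, adjusted p = 0.0975). Prom1 (-0.47, adjusted p = 0.0950), Itgb3 (0.30, adjusted p = 0.221) and Procr (0.56, adjusted p = 0.751) did not pass. Procr, the marker used for basal stem cells, had 0, 0.0111, 0.00598, 0.0164 and 0 UMIs per 10000 in basal keratin cells. Each value above 0 came from 1 UMI, under the floor of 3 counts, so no level of Procr in these cells can be read from them.

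Cycling epithelial cells had less of 6 members. They were defined by Top2a and Mki67 at 2 or more UMIs per 10000 together, numbered 130, 151, 299, 265 and 298, and had median depths of 21106.5 to 31269 UMIs against 10193.5 to 13086 in the other epithelial cells. Of 13703 genes tested with edgeR, 30.3% were higher and 31.2% lower. Itgb3 had 0.0526, 0.0630, 0.149, 0.201 and 0.221 UMIs per 10000 in cycling cells and 0.209, 0.167, 0.283, 0.488 and 0.496 in the others (log2 fold change -1.28 ± 0.10, adjusted p = 4.63e-07). Cd14 had 1.27, 1.13, 1.80, 2.38 and 1.95 against 4.24, 2.26, 3.76, 4.74 and 4.18 (-1.20 ± 0.09, adjusted p = 2.60e-07). Each was lower in cycling cells in 5 of 5 libraries.

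Kit fell by 0.76 ± 0.06 on the log2 scale (adjusted p = 7.81e-07), Cd44 by 0.46 ± 0.07 (adjusted p = 0.000188), Itga6 by 0.40 ± 0.05 (adjusted p = 1.88e-05) and Cd24a by 0.16 ± 0.04 (adjusted p = 0.00610). Prom1 was the member called higher, at 0.190, 0.0890, 0.232, 0.277 and 0.450 UMIs per 10000 against 0.148, 0.118, 0.176, 0.251 and 0.255 (0.32 ± 0.12, adjusted p = 0.0397). It was lower in fresh 10x 2, and the call was lost with DESeq2 (0.28, adjusted p = 0.0923), with the gate at 30, in cells of at most 20% mitochondrial UMIs, and without fresh 10x 1, stored 10x or BD 2 (0.14, adjusted p = 0.329, for the last). Aldh1a3 was not called (-0.25, adjusted p = 0.331), except without fresh 10x 2 (-0.57, adjusted p = 0.00290) and with no filter on low counts, and Procr had too few UMIs for a test.

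Co-expression within epithelial cells was measured in 2 ways. In one, cells with at least 8000 UMIs (990, 1045, 1858, 1921 and 1694 cells) were thinned to exactly 8000 UMIs, split by whether they held a UMI of 1 member, and every other member was tested between the split cells by edgeR's quasi-likelihood test with Benjamini-Hochberg adjustment over all genes and the library as a block. Of 56 ordered pairs among the 8 members other than Procr, 24 were called, 18 higher and 6 lower. Of the 28 unordered pairs, 11 were called both ways and 2 once. The share of all genes called in either direction was 11.6% for cells split by Aldh1a3, 17.1% by Kit, 7.77% by Prom1, 22.9% by Cd14, 0.161% by Cd24a, 7.51% by Cd44, 5.23% by Itga6 and 13.9% by Itgb3.

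Kit, Cd14, Itgb3, Cd44 and Aldh1a3 were higher in cells that held one another, and each pair of these 5 was called at least once, except Aldh1a3 with Itgb3. Cd14 with Cd44 was called in 1 direction, Cd44 split by Cd14, and that call was lost with DESeq2 (0.26, adjusted p = 0.0698). Cd44 split by Kit was lost with DESeq2 (0.25, adjusted p = 0.0828) and without BD 2 (0.21, adjusted p = 0.0532), and Itgb3 split by Cd44 without BD 2 (0.32, adjusted p = 0.0507). With a Cd14 UMI, Kit had 0.685, 0.871, 0.916, 1.14 and 0.993 UMIs per 10000, and without it 0.447, 0.694, 0.602, 0.844 and 0.725 (log2 fold change 0.54 ± 0.05, adjusted p = 4.47e-06). With a Kit UMI, Itgb3 had 0.251, 0.191, 0.343, 0.623 and 0.635 against 0.138, 0.110, 0.242, 0.397 and 0.396 (0.64 ± 0.07, adjusted p = 6.66e-06). Both were higher in 5 of 5 libraries.

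Aldh1a3 moved most with Cd14 and Cd44. It had 0.142, 0.214, 0.309, 0.301 and 0.333 UMIs per 10000 in cells with a Cd14 UMI against 0.0845, 0.0738, 0.0796, 0.214 and 0.115 in cells without (1.27 ± 0.16, adjusted p = 3.67e-05). It had 0.249, 0.216, 0.348, 0.3996 and 0.423 with a Cd44 UMI against 0.0812, 0.119, 0.179, 0.179 and 0.122 (1.22 ± 0.11, adjusted p = 8.45e-06). Both differences held in 5 of 5 libraries. By Kit, the value for Aldh1a3 was 0.82 ± 0.10 (adjusted p = 1.96e-05). In the other direction Kit split by Aldh1a3 gave 0.58 ± 0.11 (adjusted p = 0.000174), with 0.779 against 0.785 UMIs per 10000 in fresh 10x 2 and 2.19 against 0.956 in fresh BD, and it was not called without fresh BD (0.34, adjusted p = 0.0822).

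Prom1 went the other way. Cells with a Prom1 UMI had 2.49, 1.60, 1.98, 2.73 and 3.51 UMIs of Cd14 per 10000 against 3.87, 2.03, 3.77, 4.83 and 4.19 in cells without, lower in 5 of 5 libraries (-0.66 ± 0.08, adjusted p = 9.74e-07). Split by Cd14, Prom1 had 0.116, 0.1001, 0.127, 0.161 and 0.230 against 0.232, 0.150, 0.265, 0.363 and 0.362 (-0.86 ± 0.09, adjusted p = 8.93e-06). All 6 lower calls were pairs of Prom1: with Cd14, with Itgb3 (-0.64 ± 0.11 for Itgb3 split by Prom1, adjusted p = 0.000219, and -0.52 ± 0.12 for Prom1 split by Itgb3) and with Aldh1a3 (-0.91 ± 0.19 for Aldh1a3 split by Prom1, adjusted p = 0.00274). Prom1 split by Aldh1a3 (-0.65 ± 0.21, adjusted p = 0.0343) was not called when any 1 library was left out, and Aldh1a3 split by Prom1 was not called without stored 10x (-0.77, adjusted p = 0.0601) or BD 2 (-0.71, adjusted p = 0.0604). Prom1 split by Kit was not called (-0.28, adjusted p = 0.0521).

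Itga6 was in 0 of the calls, and Cd24a in 1, a difference of 0.13 ± 0.04 with Cd14 (adjusted p = 0.0248) that was lost with DESeq2 (0.12, adjusted p = 0.122). By edgeR the Cd24a call was also lost without fresh 10x 1 (adjusted p = 0.0946), without stored 10x (adjusted p = 0.0874) and without BD 2 (adjusted p = 0.0807). Splitting by Cd24a called 0 members and 19 of 11836 genes, with 1005 genes at an unadjusted p under 0.05. Splitting by Itga6 also called 0 members, with Itgb3 and Aldh1a3 at unadjusted p = 0.0186 and 0.0350. DESeq2 called 0 of the 2 members (split by Cd24a) and 0 of the 3 (split by Itga6) for which it gave an adjusted p. Depth and position relative to the gate moved with some members. Before thinning, cells with Aldh1a3 in fresh 10x 2 had a median of 30182 UMIs against 16590 in cells without. Pearson r of the thinned value with the sum of the 3 gate genes was 0.1001 to 0.215 for Aldh1a3 and 0.106 to 0.213 for Cd14 over the libraries, and the part of either in these differences was not tested.

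**Figure D3:**
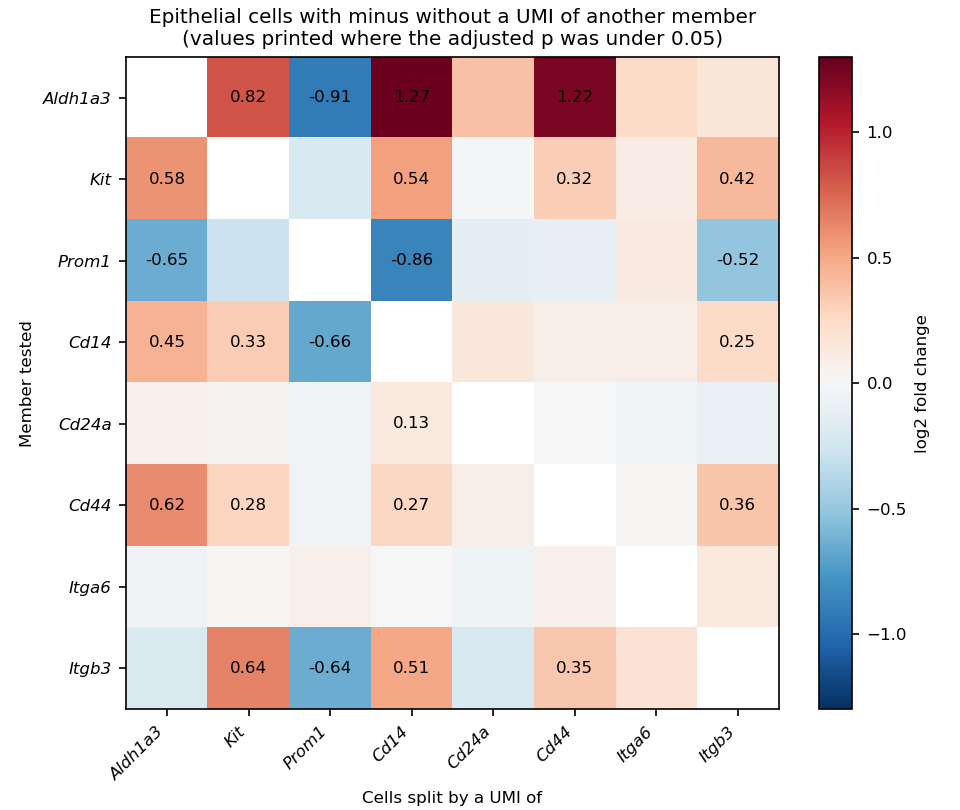
Log2 fold change of the member on the vertical axis between epithelial cells with and without a UMI of the member on the horizontal axis, in cells thinned to 8000 UMIs; red is higher, blue lower, and values are printed where edgeR's adjusted p was under 0.05. The row and the column of Prom1 hold the 6 lower calls, and the row and the column of Itga6 hold none.

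**Figure D4:**
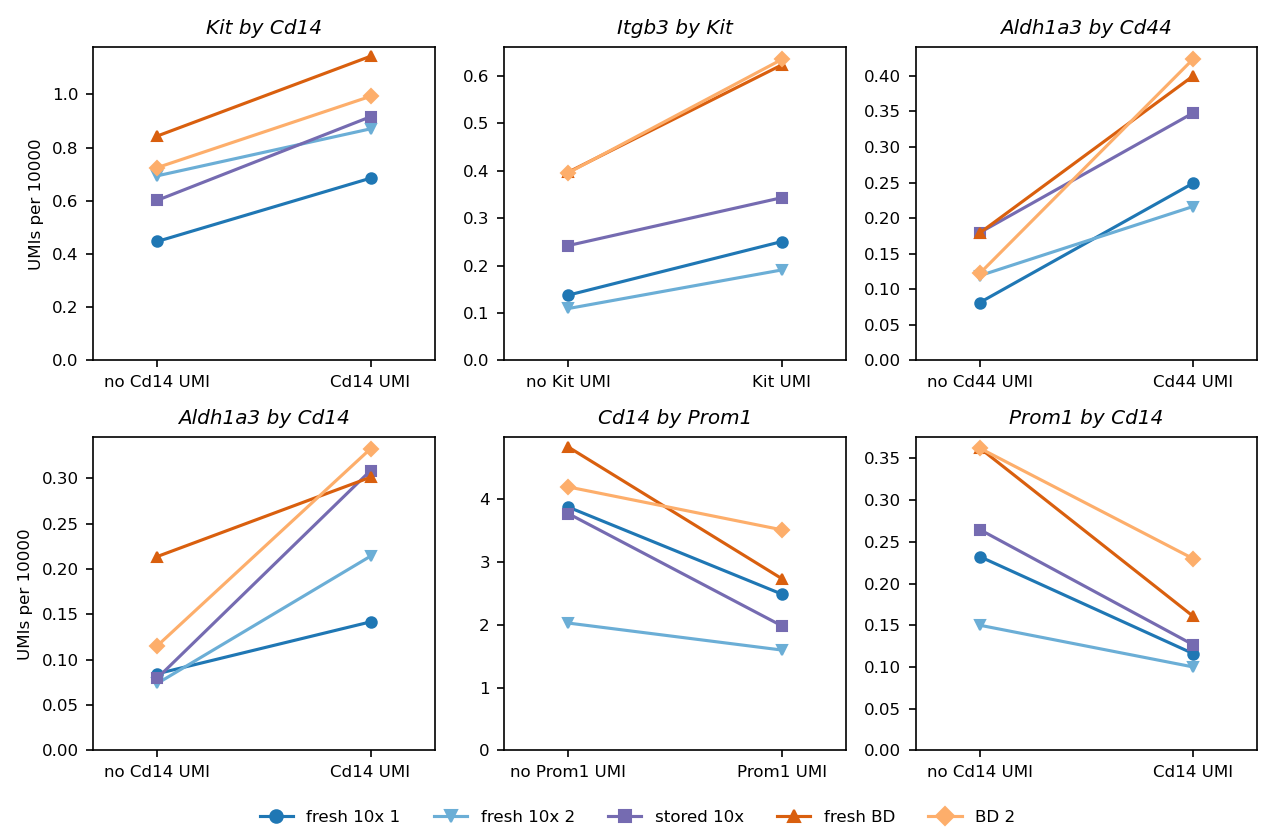
Level in UMIs per 10000 of the first-named member in cells without and with a UMI of the other, 1 line per library, for 6 ordered pairs. Kit by Cd14, Itgb3 by Kit, and Aldh1a3 by Cd44 and by Cd14 go up in 5 of 5 libraries, and Cd14 by Prom1 and Prom1 by Cd14 go down in 5 of 5.

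In the other, Pearson r across epithelial cells of the log counts was computed in each library for the 28 pairs without Procr, as a description. The 8 pairs with Procr were left out, since fresh 10x 2 kept 0 Procr UMIs after thinning to 2000 UMIs and 3 cells with one after thinning to 8000. At 2000 UMIs a cell the median r over libraries ran from -0.0296 (Prom1 and Cd14) to 0.0781 (Aldh1a3 and Kit). At 8000 UMIs it was highest for Kit and Cd14, at 0.125 (0.0596 to 0.136 over libraries), followed by 0.0949 for Kit and Itgb3, and lowest for Prom1 and Cd14, at -0.0932. A total of 13 pairs were above 0 and 3 below 0 in 5 of 5 libraries. Cells of a library share its depth and preparation, and correlations this weak in sparse counts are no finding by themselves. At 8000 UMIs, the share of cells with both transcripts over the share expected from each had a median of 1.09 for Kit and Cd14. It was 1.24 for Kit and Itgb3, 0.710 for Prom1 and Itgb3, and 0.631 for Aldh1a3 and Prom1. The value for Aldh1a3 and Prom1 rested on 1, 3, 10, 16 and 10 cells with both and ran from 0.254 to 0.899 over libraries.

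Cells that carried all of Aldh1a3, Kit, Cd14 and Itgb3 at 8000 UMIs were rare: 2, 1, 13, 16 and 8 cells, or 0.202%, 0.0957%, 0.700%, 0.833% and 0.472%. Cells with 3 of the 4 made up 4.85%, 5.07%, 7.43%, 10.8% and 10.2%, and cells with none made up 22.6%, 28.2%, 20.8%, 16.8% and 21.8%. At this depth most epithelial cells held at least 1 of these luminal progenitor markers and few held all of them. A UMI of Aldh1a3 was seen in only 3.94%, 5.84%, 7.10%, 6.92% and 5.96% of the same cells, and of Itgb3 in 11.7%, 9.67%, 17.3%, 22.9% and 23.7%. These shares limit how many cells can hold all 4. The share expected from each marker alone was not computed, so the rarity does not measure co-expression.

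**Figure D5:**
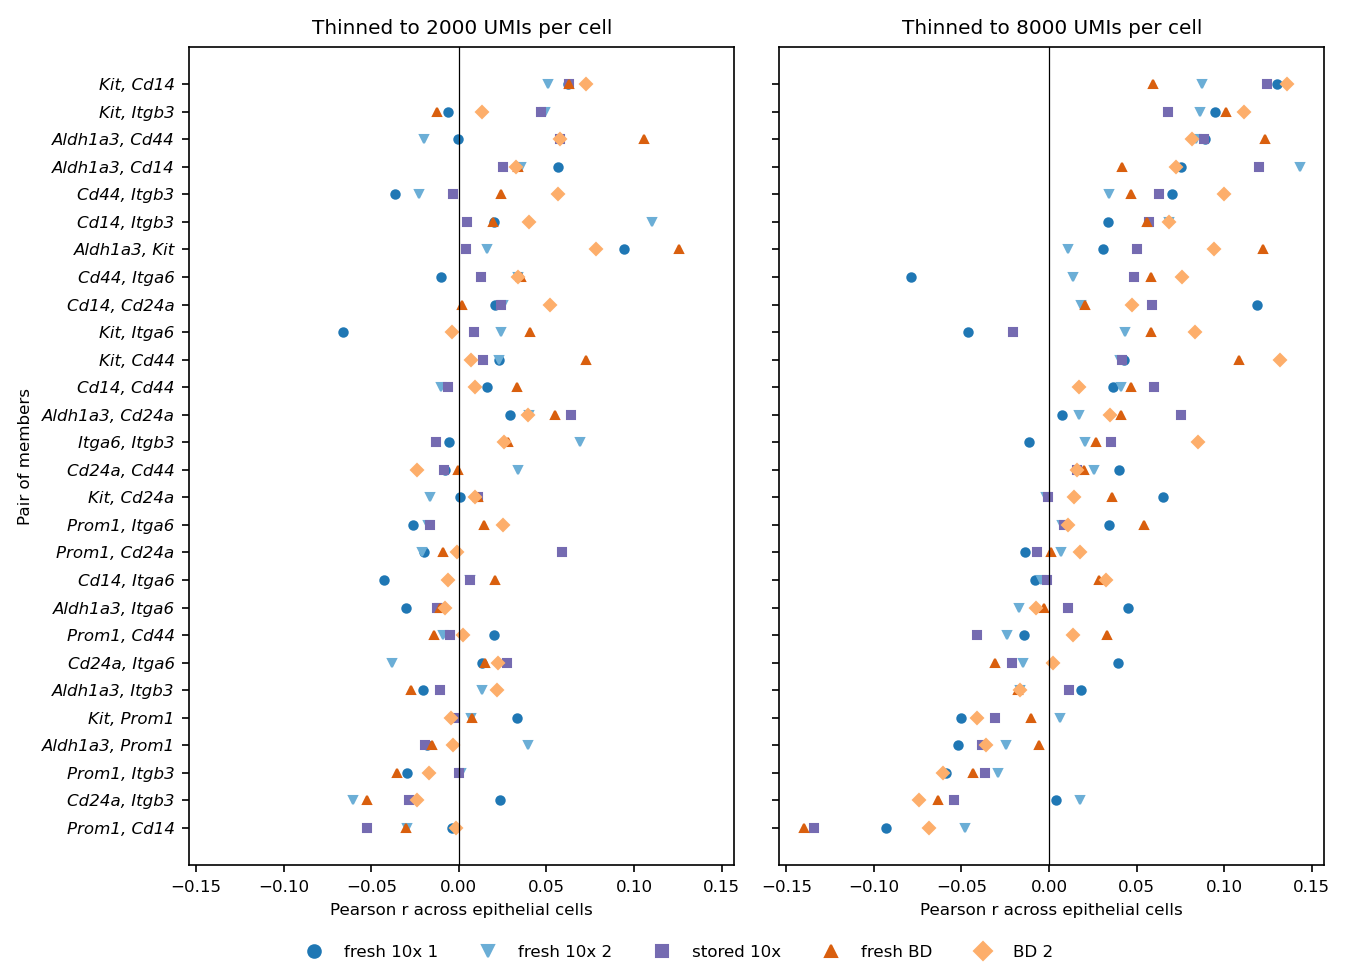
Pearson r across epithelial cells for 28 pairs of members, 1 point per library, in cells thinned to 2000 UMIs (left) and 8000 UMIs (right), with pairs ordered by the median at 8000 UMIs. Kit and Cd14 stand at the top (median 0.125) and Prom1 and Cd14 at the bottom (median -0.0932), with most pairs near 0.

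The genes whose pattern across epithelial cells was most like that of a member were ranked by median r over the 5 libraries at 2000 UMIs, among the 3703 or 3704 genes seen in at least 5% of cells of every library. Aldh1a3 had the highest values, with Krt19 (0.258), a luminal keratin, S100a6 (0.251), a calcium-binding protein, and Ltf (0.187), lactoferrin, against a 99th percentile of 0.0767 over all genes compared. Cd14 was followed by Lrg1 (0.223), a secreted leucine-rich glycoprotein, Spp1 (0.211), osteopontin, and Csn3 (0.197), the milk protein κ-casein. Kit was followed by Igfbp5 (0.150), Ly6e (0.115) and Cp (0.111), ceruloplasmin, and Itgb3 also by Igfbp5 (0.121) and Cp (0.0979), then by Spp1 (0.0885), a ligand of its αvβ3 integrin.

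Cd24a was closest to Actg1 (0.153), Tmsb4x (0.0977) and Hsp90ab1 (0.0952), cytoskeletal and chaperone genes of high abundance. Cd44 was closest to S100a6 (0.110), Lgals3 (0.0914) and Ahnak (0.0914), and Itga6 to Lgals7 (0.0996), Nfib (0.0909) and Perp (0.0763). Prom1 was closest to the water channel Aqp5 (0.0798), Cpd (0.0763) and Socs2 (0.0741). Some of these changed sign between libraries: Cd24a with Hsp90ab1 was -0.0329 in fresh 10x 1. In fresh 10x 2, Cd44 with S100a6 was -0.0223 and Prom1 with Cpd -0.00189. For members other than Aldh1a3 the 99th percentile over all genes compared was 0.0422 (Prom1) to 0.0910 (Cd14). Aqp5 was the gene with the lowest r for Aldh1a3 (-0.110) and for Cd14 (-0.116), and Spp1 was the lowest for Prom1 (-0.0828).

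Among the ligands, partner chains and other lineage genes, the luminal progenitor list lay on the epithelial side. Of its 14 genes tested, 9 were higher in epithelial cells and 1 lower, with Ltf (3.73) and Tspan8 (3.60) largest and a median log2 fold change of 1.87 against 0.07 over all genes. Over all genes tested, 34.6% were higher and 31.9% lower, and the list counts are to be read against these shares. Of 18 ligands and partners of the members, 6 were higher and 9 lower. The hyaluronan synthase Has1 (-6.72), which makes the ligand of Cd44, and thrombomodulin, Thbd (-5.77), which acts with Procr in protein C activation, were lowest. Of 11 hormone-sensing genes, 5 were higher and 3 lower, with Tnfsf11 (-5.50) and Ly6a (-4.23) the largest differences. That list holds the member Prom1, which is 1 of the 5, so its count is not independent of the Prom1 result above. Of 15 basal and stem linked genes, 2 were higher and 8 lower, led by the smooth muscle genes Myh11 (-5.62) and Acta2 (-5.15). Of 8 aldehyde dehydrogenases, with the member Aldh1a3 included and not called, 2 were higher and 3 lower, led by Aldh1a2 (-6.69) and Aldh1a1 (-6.19).

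In basal keratin cells, 9 of 16 partners were higher and 1 lower, with Lama3 (5.07), a chain of the laminin that Itga6 binds, and the hyaluronan synthase Has2 (4.69) largest. Of 13 basal and stem linked genes, 9 were higher and 0 lower, with Krt17 (6.96) and Acta2 (5.20) largest, and the 4 genes of the basal check above belong to this list. Of 14 luminal progenitor genes, 4 were higher, led by Krt15 (4.59) and Krt7 (1.99), and 6 lower. Of 10 hormone-sensing genes, with the member Prom1 included and not called, 2 were higher and 4 lower. The leading ones were Pgr with 0 UMIs and Foxa1 with 1 UMI in basal keratin cells. Of 6 aldehyde dehydrogenases, 2 were higher, Aldh1a3 and Aldh3a1, the latter from 4 UMIs, and 2 lower. The median over all genes was -0.11, with 9.59% of them higher and 14.1% lower.

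In cycling cells, 12 of 13 luminal progenitor genes were lower and 0 higher, led by Ltf (-1.55) and Tspan8 (-1.02), with a list median of -0.85 against -0.04 over all genes. Over all genes tested, 30.3% were higher and 31.2% lower. Of 13 basal and stem linked genes, 10 were lower and 0 higher, led by Oxtr (-2.44) and Krt5 (-2.03). Of 17 partners, 11 were lower, among them Spp1 (-1.66), and 1 was higher, the hyaluronan receptor Hmmr (4.91), a gene of mitotic cells. Hormone-sensing genes divided into 3 higher, led by Areg (1.45) and Cited1 (0.86), and 2 lower of 10. The 3 include the member Prom1, whose call was lost in the alternatives given above. Aldehyde dehydrogenases, with Aldh1a3 included and not called, divided into 1 higher (Aldh9a1, 0.71) and 2 lower of 5, the larger in Aldh3b1 (-0.72).

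Between platforms, fresh BD epithelial cells had more Cd24a, Cd44, Itgb3 and Prom1 than fresh 10x epithelial cells. Cd24a had 7.87 UMIs per 10000 in fresh BD and 2.91 ± 0.0225 (SD, n = 2) in fresh 10x (log2 fold change 1.27 ± 0.12, edgeR adjusted p = 0.000699). Cd44 had 0.824 against 0.396 ± 0.00874 (0.89 ± 0.10, adjusted p = 0.00131), Itgb3 0.439 against 0.163 ± 0.0251 (1.27 ± 0.16, adjusted p = 0.00180) and Prom1 0.256 against 0.134 ± 0.0309 (0.77 ± 0.21, adjusted p = 0.0284). Of 15422 genes tested, 20.3% were higher and 20.3% lower, and of the 9 members 4 were higher and 0 lower. Prom1 was not called with DESeq2 (0.74, adjusted p = 0.0686) or with the gate at 30 (0.65, adjusted p = 0.0698), where Aldh1a3 was (1.37, adjusted p = 0.0172). The spread in this fit comes from the fresh 10x pair alone, each library was sequenced on 1 platform, and platform cannot be told apart from the library.

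Only 1 library was stored, so in the next comparison storage cannot be told apart from that library. In stored against fresh 10x epithelial cells 0 members and 110 of 15422 genes (0.713%) were called by edgeR, with 2479 genes at an unadjusted p under 0.05, and DESeq2 also called 0 members. Itgb3, at 0.259 against 0.163 UMIs per 10000 (0.69 ± 0.16), and Cd24a, at 4.02 against 2.91 (0.48 ± 0.12), had unadjusted p values of 0.00527 and 0.00666 (adjusted p = 0.141 and 0.151). With no filter on low counts Itgb3 was called (0.71, adjusted p = 0.0349).

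The difference between epithelial and other cells was itself compared between platforms by an interaction term. EdgeR called 0 members and 7 of 15754 genes (0.0444%), with 3237 genes and 5 members at an unadjusted p under 0.05. The 5 were Prom1 (-1.11 ± 0.32, BD minus 10x, edgeR adjusted p = 0.144), Procr (-1.08 ± 0.32, adjusted p = 0.145), Itga6 (0.59 ± 0.18, adjusted p = 0.152), Cd14 (-0.81 ± 0.31, adjusted p = 0.211) and Cd24a (-1.33 ± 0.53, adjusted p = 0.222). DESeq2 called 0 members. Without stored 10x, 2921 genes were called, against 7 with it, so the change was not limited to the members. The 5 members among them were Aldh1a3 (-1.36), Prom1 (-1.67), Cd14 (-1.39), Cd24a (-2.19) and Cd44 (-0.66). The epithelial marker sum of cells outside the gate, 0.508 to 1.91 UMIs per 10000 on 10x and 2.59 and 4.05 on BD Rhapsody, moved with these differences, and its part in them was not tested.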

How the data were processed

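Each library was deposited by the authors as a table of cells by genes holding UMI counts, whole numbers that were used without normalisation, for cells the authors had selected. Per the submitters' processing notes, the build mm10 and Cell Ranger 3.0.1 were used, with no role given for single samples, and no other tool is named in the labels. Gene symbols spelled in 2 forms were joined, and 0 joined symbols had UMIs in both forms. Libraries were grouped by title, except that BD 2, whose title and matrix name differ on storage, was a group of its own.

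Cells were gated on UMIs per 10000: epithelial Krt8, Krt18 and Epcam at 15 or more, and below that macrophages (C1qa, C1qb, C1qc at 10), T cells (Cd3d, Cd3e, Cd3g at 2), endothelial cells (Pecam1, Cdh5, Egfl7 at 5), mural cells (Rgs5, Higd1b, Cspg4 at 5) and fibroblasts (Col1a1, Col1a2, Col3a1 at 30), with further gates for rarer cells. Cells passing several gates were kept apart, except that T went before natural killer cells and mural before fibroblasts. No doublet caller was run; 0.835% to 2.79% of epithelial cells also passed another gate and were left out in an alternative. Counts were summed per library and class and tested with edgeR 4.0.16 in R 4.3.3 (TMM, filterByExpr, quasi-likelihood test, Benjamini-Hochberg adjustment over all genes tested, threshold 0.05), with DESeq2 1.42.0 as an alternative; the tests were checked on simulated data. Shares of cells carry exact binomial 95% intervals in the underlying tables, which cover counting error only. Thinning drew 2000 or 8000 UMIs per cell without replacement in Python 3.11.15 (numpy 2.4.6, scipy 1.17.1, pandas 2.3.3); figures used matplotlib 3.10.9. At 2000 UMIs, 57, 75, 263, 0 and 1 shallower epithelial cells were left out.

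The members and the gene lists (ligands and partners, luminal progenitor, hormone sensing, basal and stem linked, aldehyde dehydrogenases) were chosen with earlier results of these data known. All 9 members are reported in every comparison. From each list the 2 genes with the largest absolute change among those called are named, and for each member the 3 genes with the highest median r. The test between cells with and without a UMI of another member, the thinning to 8000 UMIs and the limit on outside cells to those passing exactly 1 class gate were added after seeing the data. Alternatives were DESeq2, no filter on low counts, a filter on cells (at least 1000 UMIs, at most 20% mitochondrial UMIs), an epithelial gate of 30, double-gated cells left out, each library left out, and, for the platform and storage comparisons, both BD Rhapsody libraries grouped by their titles.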

Additional observations from a re-analysis of the deposited data

How the results depend on the processing

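Of the members' values in the comparisons over summed counts, 893 kept their direction and side of the threshold over the alternatives, 33 lost a call, 17 gained one and 13 changed sign; of the values of 1 member by another, 173 kept the call and 17 lost it. With the epithelial gate at 30, Aldh1a3 turned to 0.87 and Cd44 to 0.15 in epithelial against other cells, Itgb3 in fibroblasts to -0.052, and in the platform interaction Aldh1a3 to 0.36 and Cd44 to 0.064. The interaction also changed sign when a library was left out, for Kit (-0.59 to 0.35) and Cd44 (-0.66 to 0.066), and for Kit (0.44), Prom1 (1.31) and Itgb3 (-0.039) against outside cells passing exactly 1 class gate. In T cells Procr was 0.76 with DESeq2 and Itgb3 ran from -0.46 to 0.14 with a library left out. The cause was not tested.

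The interaction called 603 genes with DESeq2, 730 and 1 member with no filter on low counts, 4 with the filter on cells, 0 with the gate at 30 and 4 against outside cells passing exactly 1 gate, where the main count was 7. Fresh BD against fresh 10x called 3791 genes with DESeq2 against 6254. Stored against fresh 10x called 460 genes and 1 member with no filter, 40 with the filter on cells, 1 with the gate at 30 and 275 with the BD Rhapsody libraries grouped by title, against 110. Basal keratin cells with the gate at 30, fitted in the 10x libraries only, gave 3 members and 1398 genes, against 6 and 3288. Pairs of members with 1 sign of r in every library numbered 17 without thinning and 16 at 8000 UMIs, against 9.

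With each library left out in turn, members called ranged from 6 to 9 for epithelial against other cells, 0 to 5 for the interaction (0 to 2921 genes), 4 to 4 for fresh BD, 0 to 0 for storage, 8 to 9 for macrophages, 7 to 7 for T cells, 7 to 8 for endothelial cells, 8 to 8 for fibroblasts, 7 to 9 for mural cells, 5 to 7 for basal keratin cells (2333 to 3055 genes) and 6 to 8 for cycling cells. All genes called ranged from 8793 to 10073 for epithelial against other cells and from 7700 to 8192 for cycling cells. For the classes they ranged from 5813 to 7448 (macrophages), 5279 to 6612 (T cells), 5486 to 6356 (endothelial cells), 6952 to 8516 (fibroblasts) and 3431 to 4531 (mural cells). The member counts are to be read against these and against the shares over all genes given with each comparison. Ordered pairs called ranged from 19 to 24, against 24 (18 with DESeq2, which gave no adjusted p for 2 of the 24), and pairs with 1 sign from 9 to 13. Where an arm was left with 1 library, that library was assumed to vary like the others. No paired analysis was possible because the numbers of the fresh 10x and BD Rhapsody libraries name separate samples and only 1 BD Rhapsody library has an undisputed fresh label. Procr in epithelial cells, Aldh1a3 in basal keratin cells and all members in mural cells are limited by depth, with few UMIs behind each value.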

Other observations

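Cells below the epithelial gate that passed no class gate on 10x had high Itga6, at 3.73, 2.77 and 2.05 UMIs per 10000 in fresh 10x 1, fresh 10x 2 and stored 10x, against 1.33 and 1.29 in fresh BD and BD 2. The sum of Trp63, Krt17, Acta2 and Oxtr in the same cells was 18.7, 3.24 and 4.58 on 10x and 0.469 and 0.507 on BD Rhapsody. No test was made on these cells. Neutrophil-gated cells (S100a8 and S100a9 at 20 or more UMIs per 10000) had 34.3, 113, 90.2, 89.5 and 61.0 UMIs of Cd14 per 10000 in the order of the libraries above, from 2, 2, 11, 10 and 10 cells. In BD 2 the mural gate held 8 cells, and 1 of them carried all 20 Aldh1a3 UMIs of that class, while the mural cells of the other libraries had 0.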
